A study of Mus musculus with 6 samples.

Results

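Genes that copy DNA and genes that divide the cell were measured in B cells of wild-type (WT) mice and of mice whose B cells are deficient in PP2Aa, the alpha form of the structural A subunit of PP2A, a serine/threonine phosphatase. The 44 genes were chosen by name, 19 for replication and 25 for mitosis, and all 44 had a row among the 22788 genes of the deposited table. WT libraries came from C57BL/6 mice, and no Cre or floxed allele is given for them. PP2Aa-deficient libraries came from mice of the same strain background that were flox/flox for Ppp2r1a and carried a Cre recombinase that acts in B cells. Each group had 3 libraries, all mice were 8 weeks old, and neither group was given a treatment in the labels. The tissue is given as spleen while the labels' protocols describe peritoneal lavage, and a deposited plate sheet words the wells differently, as miRNA control (WT) and miRNA target (PP2Aa-deficient). The groups here follow the genotype labels. The sheet gives each of these wells its own number, but nothing says that the numbers stand for separate mice, so p-values measure only the spread between these libraries.

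Values are FPKM, fragments scaled by transcript length and library, so levels of different genes can be set side by side. Ppp2r1a, the targeted gene, was at 85.7, 85.4 and 83.7 FPKM among WT replicates, with 31.3, 56.2 and 28.2 FPKM among PP2Aa-deficient replicates, with no overlap, and without being called over all genes (log2 change -1.19, SE 0.23, limma adjusted p = 0.168). The value covers the whole gene and may include transcript outside the deleted part. Depth was about 2020000 to 3630000 fragments per library, estimated from steps of 1 fragment among low values and GENCODE M21 lengths. The shallowest libraries were PP2Aa-deficient replicate 2 (about 2020000) and WT replicate 1 (about 2070000). At these depths 19 of the 44 genes had fewer than about 10 fragments in their lowest library, counted over the longest coding transcript. A shorter transcript would give fewer fragments at the same FPKM, so more genes may lie below 10. The 7 B cell markers (Cd79a, Cd79b, Ms4a1, Pax5, Cd22, Blk and Ebf1) were detected in every library and summed to 3076, 3003 and 3135 FPKM across WT libraries against 3121, 3320.1 and 2922 across PP2Aa-deficient ones, a narrow range. Xist, the RNA of the inactive X chromosome, was high in replicate 1 of both groups (65.2 FPKM for WT, 84.5 FPKM for PP2Aa-deficient) and did not exceed 0.116 FPKM elsewhere, so each group held 1 Xist-high library. In RNA from a mixed population, fewer dividing cells and less RNA per dividing cell cannot be told apart.

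A cell that enters the cycle first loads the ring of MCM2 to MCM7 proteins onto replication origins with the help of CDC6 and CDT1, then activates that ring as a helicase with CDC45 and the GINS complex. E2F transcription factors switch on most genes of this programme, and cyclin E with its kinase starts S phase. Mitosis follows under cyclin A and B with CDK1, Aurora and Polo kinases, while the spindle checkpoint holds back the anaphase promoting complex until every chromosome is attached at its centromere. Many mitosis genes are repressed in resting cells by the DREAM complex through a short promoter element, CHR, next to CCAAT boxes. Resting B cells in the spleen and peritoneum divide little, and germinal centre B cells divide fast. PP2A removes phosphates that mitotic kinases add, and its regulatory subunits direct it to kinetochores, where it counteracts Aurora B.

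The genes differed widely in level. Pcna, the sliding clamp of DNA polymerase, was the highest of the 44, at 139, 115 and 118 FPKM for WT compared with 120.0, 87.1 and 130.4 FPKM for the PP2Aa-deficient group. Cks2, a small subunit of cyclin-dependent kinases, was at 101, 60.7 and 58.2 FPKM across the WT libraries against 69.8, 50.6 and 72.8 across the PP2Aa-deficient ones. Hmgb2, a chromatin protein, was at 64.5, 65.7 and 66.9 FPKM among WT replicates, with 65.2, 64.3 and 62.6 FPKM among PP2Aa-deficient replicates. In all, 14 genes averaged above 10 FPKM and 15 averaged below 2 FPKM. Mki67, the proliferation antigen Ki-67, was low, at 3.22, 1.15 and 1.67 FPKM for WT compared with 1.26, 1.4 and 2.46 FPKM for the PP2Aa-deficient group. The groups of Pcna, Cks2, Hmgb2 and Mki67 all overlapped.

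No gene of either list passed the test between the groups. Of the 44, 36 reached 1 FPKM in at least 3 libraries and were tested with limma on log2(FPKM + 1), and 0 were called at an adjusted p of 0.05, where 0.0318% of the 9425 genes tested were called. At an unadjusted limma p under 0.05, 2 of 36 were lower in PP2Aa-deficient B cells (5.56%, against 4.41% of all tested genes) and 0 were higher (against 5.06%), and in both directions together the background was 9.47%. These 2 were Cenpa and Cdt1. Groups did not overlap for the same 2 genes on the lower side (7.4% of all tested genes) and for Ccne1 on the higher side (7.7%), shares near the background or below it. The mean was lower in PP2Aa-deficient B cells for 28 of the 36, against 51.1% of all tested genes. The plot of log2 changes shows that most intervals span 0. Leaving out 1 library at a time gave each tested gene a range of log2 changes. It is printed below for most of them, in general with the library left out at either end.

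**Figure D1:**
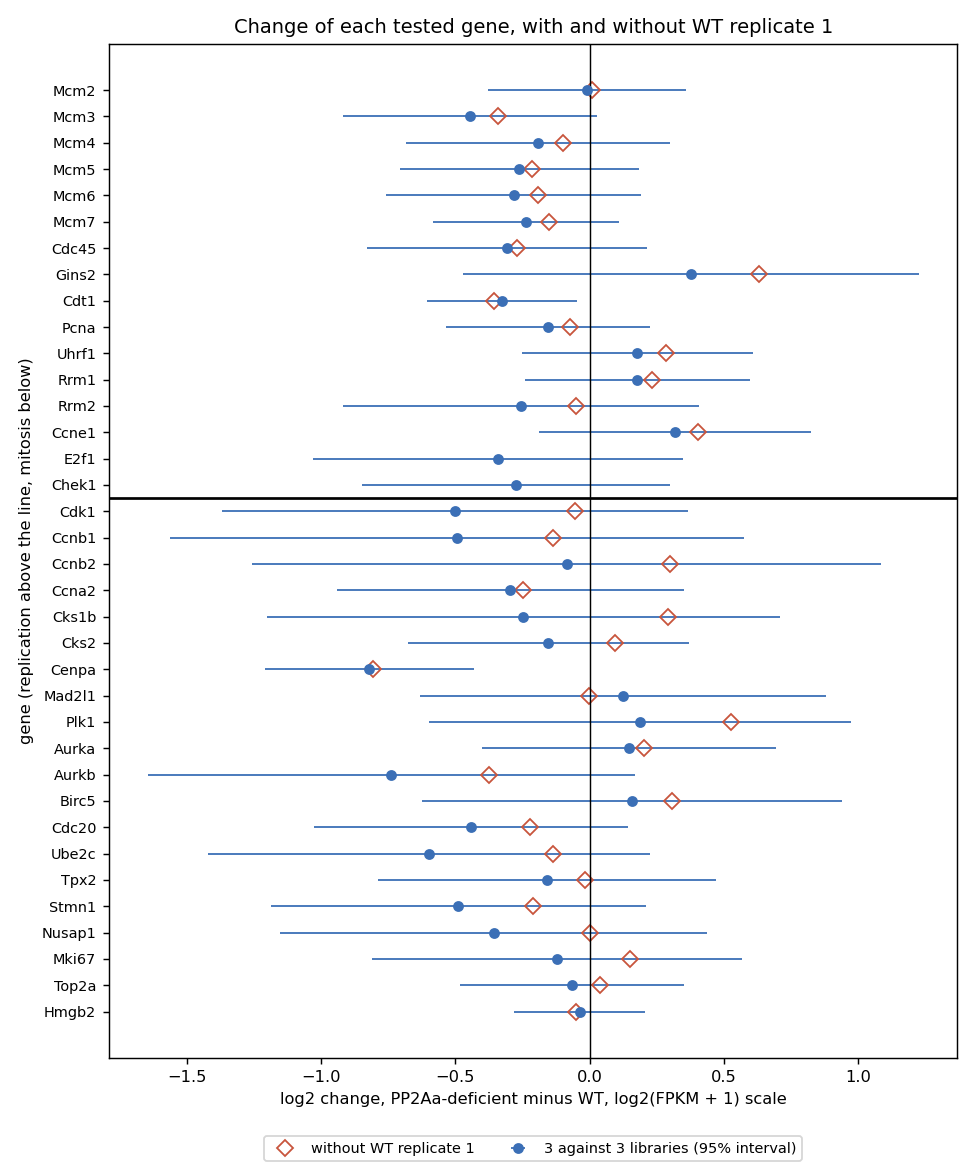
Log2 change of each of the 36 tested genes, PP2Aa-deficient minus WT on the log2(FPKM + 1) scale, with the limma 95% interval (filled points, 3 against 3 libraries) and the change without WT replicate 1 (open diamonds; E2f1 and Chek1 were then not tested). The intervals of Cenpa (-1.21 to -0.43) and Cdt1 (-0.61 to -0.05) lie below 0, and many mitosis genes shift towards or past 0 without WT replicate 1.

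Replication genes had a median log2 change of -0.25 over 16 tested genes, 12 of them lower, beside a median of -0.01 over all tested genes. Cdt1, the licensing factor that loads the MCM ring, was at 54, 61.9 and 52.8 FPKM in WT replicates 1, 2 and 3, against 47.2, 44 and 42.5 FPKM in the same order of PP2Aa-deficient replicates. Every PP2Aa-deficient library was below every WT library. This gave group means of 56.3 ± 4.96 FPKM (WT) and 44.6 ± 2.43 FPKM (PP2Aa-deficient; SD, n = 3 each), or 79.2% of WT, and a log2 change of -0.33 (SE 0.12, limma adjusted p = 0.453). Its unadjusted limma p was 0.0266, and was 0.107 without WT replicate 2, the deepest library and the one with the highest Cdt1, 0.082 without PP2Aa-deficient replicate 3 and 0.0614 without PP2Aa-deficient replicate 2. Cdc6, its partner in loading, was at 1.39, 0.679 and 0.807 FPKM across the WT libraries against 0.586, 0.203 and 1.04 across the PP2Aa-deficient ones and was too low to be tested. Gmnn, a gene outside the 44, encodes the loading inhibitor geminin. Its values were 16, 7.63 and 4.78 FPKM among WT replicates, with 11, 14.7 and 17.5 FPKM among PP2Aa-deficient replicates. The groups of Gmnn overlapped (log2 change 0.68, SE 0.36, limma adjusted p = 0.599). The log2 change ran from 0.33 without WT replicate 3 to 1.11 without WT replicate 1. At the upper end the unadjusted limma p was 0.0024, where Gmnn was still not called.

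The 6 genes of the MCM ring were all lower on average, but none without overlap. Mcm3 was at 21.7, 19.9 and 15 FPKM for WT compared with 14.5, 10.2 and 16.4 FPKM for the PP2Aa-deficient group, a log2 change of -0.45 (SE 0.21, limma adjusted p = 0.544). Mcm6 was at 23.9, 23.2 and 16.5 FPKM across the WT libraries against 17.8, 13.1 and 21 across the PP2Aa-deficient ones, a log2 change of -0.28 (SE 0.21, limma adjusted p = 0.74). In both, PP2Aa-deficient replicate 2 was the lowest library, and WT replicate 3 lay among the PP2Aa-deficient values. The range of log2 changes ran from -0.59 without WT replicate 3 to -0.26 without PP2Aa-deficient replicate 2 for Mcm3, with an unadjusted limma p of 0.0267 at the lower end, and from -0.45 without WT replicate 3 to -0.11 without PP2Aa-deficient replicate 2 for Mcm6. Mcm7 was at 20.4, 17.1 and 16.8 FPKM among WT replicates, with 14.3, 13.9 and 17.5 FPKM among PP2Aa-deficient replicates and Mcm5 at 17, 15.1 and 15.4 FPKM for WT compared with 13.7, 9.67 and 16.6 FPKM for the PP2Aa-deficient group, with log2 changes of -0.24 and -0.26 (limma adjusted p = 0.685 and 0.741). Mcm4 ranged from 10.2 to 16.8 over the 6 libraries (log2 change -0.19). Mcm5 and Mcm4 ran from -0.43 without PP2Aa-deficient replicate 3 to -0.066 without PP2Aa-deficient replicate 2 and from -0.40 without WT replicate 3 to -0.071 without PP2Aa-deficient replicate 2, and Mcm7 from -0.33 without PP2Aa-deficient replicate 3 to -0.15 without WT replicate 1. Mcm2 was at 15.2, 16.1 and 13.2 FPKM across the WT libraries against 13.4, 13.3 and 17.6 across the PP2Aa-deficient ones, with group means of 14.8 and 14.8 FPKM. Its log2 change of -0.01 had an interval of -0.38 to 0.36, and its sign differed between settings. PP2Aa-deficient replicate 2 held the lowest value of 5 of the 6 ring genes, and of 8 of the 16 tested replication genes against 17% of all tested genes. Without that library the median of the replication genes was -0.07, with 9 of 15 lower.

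The partners of the ring had means on both sides of WT. Cdc45 was at 4.36, 5.36 and 2.84 FPKM among WT replicates, with 3.2, 2.6 and 3.56 FPKM among PP2Aa-deficient replicates, a log2 change of -0.31 (SE 0.23, limma adjusted p = 0.741), with a range from -0.51 without WT replicate 3 to -0.15 without WT replicate 2 and an unadjusted limma p of 0.047 at the lower end. Gins2, a subunit of the GINS complex, was at 4.69, 1.33 and 3.88 FPKM for WT compared with 3.53, 3.05 and 6.72 FPKM for the PP2Aa-deficient group, a higher mean (log2 change 0.38, SE 0.37, limma adjusted p = 0.813) with WT replicate 2 far below the others and a range from -0.015 without WT replicate 2 to 0.63 without WT replicate 1. Pcna had a log2 change of -0.15 (SE 0.17, limma adjusted p = 0.83), and its sign turned without PP2Aa-deficient replicate 2. Uhrf1, which keeps DNA methylation through replication and lies on the chromosome of Ppp2r1a, ranged from 4.03 to 6.52 FPKM (log2 change 0.18, from 0.063 without PP2Aa-deficient replicate 3 to 0.29 without WT replicate 1). Of the enzymes that supply nucleotides, the ribonucleotide reductase subunits Rrm1 and Rrm2 had log2 changes of 0.18 and -0.26 (limma adjusted p = 0.826 and 0.847), in opposite directions. They ran from 0.014 without PP2Aa-deficient replicate 3 to 0.29 without PP2Aa-deficient replicate 2 for Rrm1 and from -0.55 without PP2Aa-deficient replicate 3 to -0.049 without WT replicate 1 for Rrm2. Tyms, thymidylate synthase, lay between 0.587 and 1.56 FPKM and was not tested.

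Among the genes that start S phase, Ccne1, cyclin E1, was at 1.79, 1.02 and 1.67 FPKM across the WT libraries against 1.96, 1.85 and 2.47 across the PP2Aa-deficient ones. These values rested on about 7.4 to 11.7 fragments. Every PP2Aa-deficient value was above every WT value, yet WT replicate 1 and PP2Aa-deficient replicate 2 differed little, and the gene did not pass (log2 change 0.32, SE 0.22, limma adjusted p = 0.722). Its log2 change ran from 0.17 without WT replicate 2 to 0.41 without WT replicate 1. Ccne2, cyclin E2, did not exceed 0.378 FPKM in any library and was not tested. The transcription factor gene E2f1 was at 1.24, 0.602 and 1.15 FPKM among WT replicates, with 0.298, 1.24 and 0.302 FPKM among PP2Aa-deficient replicates. PP2Aa-deficient replicate 2 and WT replicate 1 were nearly equal at the top, from about 6.9 and 7.0 fragments. The other PP2Aa-deficient libraries were lowest for E2f1, from about 2.0 fragments each. Its log2 change was -0.34 (limma adjusted p = 0.798), and it was tested in 3 of the 6 sets that lacked a library, from -0.49 without WT replicate 2 to -0.21 without PP2Aa-deficient replicate 1. Chek1, the checkpoint kinase of stalled forks, ranged from 0.697 to 1.88 FPKM (log2 change -0.27). It too was tested in only 3 of those 6 sets, from -0.41 without WT replicate 2 to -0.21 without PP2Aa-deficient replicate 2.

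The replication promoters shown are those of Cdt1, the replication gene of smallest p, and of Mcm3 and Mcm6 as examples from the ring, all holding the letters of an E2F site. The letters searched, on both strands, were TTTCCCGC, TTTCGCGC, TTTGCCGC and TTTGGCGC. They were found in 7 of the 16 replication genes with a promoter in the RefSeq table (43.8%), in 1 of 21 mitosis genes (4.76%), and in 2.6% of all 27025 genes with one, in windows from 250 bases before to 50 bases after a start. Each sequence below, from RefSeq on GRCm38.p6, runs from 100 bases before to 50 after the start, and capitals mark the letters. The windows are chr8:122567915-122568064 (plus strand), chr1:20820263-20820412 (minus strand) and chr1:128359656-128359805 (minus strand).
Cdt1: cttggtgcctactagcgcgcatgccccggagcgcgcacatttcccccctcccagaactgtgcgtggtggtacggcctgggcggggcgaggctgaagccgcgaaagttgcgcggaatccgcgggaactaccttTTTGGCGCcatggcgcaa
Mcm3: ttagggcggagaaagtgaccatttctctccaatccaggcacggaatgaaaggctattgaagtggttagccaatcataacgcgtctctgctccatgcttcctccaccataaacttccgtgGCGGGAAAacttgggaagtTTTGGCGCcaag
Mcm6: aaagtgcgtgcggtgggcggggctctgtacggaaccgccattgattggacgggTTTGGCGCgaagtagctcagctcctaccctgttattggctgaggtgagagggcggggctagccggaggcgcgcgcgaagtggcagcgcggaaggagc
Cdt1 holds 1 match, Mcm3 holds 2 and Mcm6 holds 1 in the part shown. A match describes letters only, and whether E2F bound there was not measured.

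**Figure D2:**
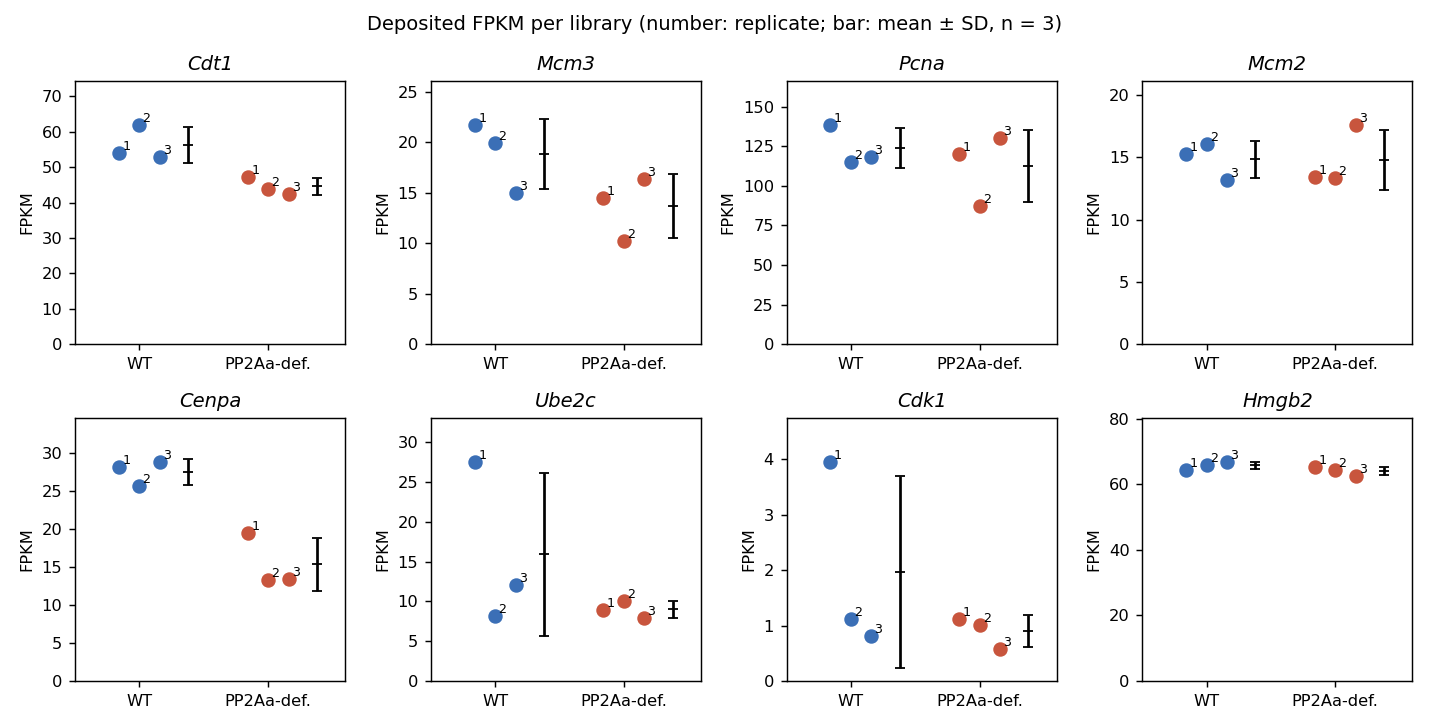
FPKM of 4 replication genes (upper row) and 4 mitosis genes (lower row) in each library (points, numbered by replicate), with the mean ± SD of each group (n = 3). Cdt1 and Cenpa show groups that do not overlap, Ube2c and Cdk1 show WT replicate 1 above the other 5 libraries, and Hmgb2 lies between 62.6 and 66.9 FPKM in all 6.

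Among mitosis genes the clearest difference was in Cenpa, which encodes the histone H3 variant that marks the centromere and seats the kinetochore. It was at 28.1, 25.6 and 28.8 FPKM in WT replicates 1, 2 and 3, against 19.4, 13.2 and 13.4 FPKM in the same order of PP2Aa-deficient replicates. The WT libraries lay close together and every PP2Aa-deficient library was below them, with PP2Aa-deficient replicate 1 the highest of the 3. This gave group means of 27.5 ± 1.71 FPKM (WT) and 15.4 ± 3.5 FPKM (PP2Aa-deficient; SD, n = 3 each), or 55.8% of WT, a log2 change of -0.82 (SE 0.17, 95% interval -1.21 to -0.43). The unadjusted limma p was 0.00112 and the adjusted p 0.195, so Cenpa was not called over all genes. In 16 other settings the log2 change stayed between -0.99 and -0.73 and the limma adjusted p between 0.136 and 0.482. Without WT replicate 1 the log2 change was -0.81, and in the 2 against 2 Xist-low libraries it was -0.97. About 39 fragments or more lay behind each value, counted over the longest coding transcript. RefSeq lists no gene that overlaps Cenpa on GRCm38.p6.

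Of the other 5 kinetochore and checkpoint genes, only Mad2l1 was high enough to be tested. Mad2l1, which encodes the checkpoint protein MAD2, ranged from 3.3 to 10.2 FPKM, with both ends in PP2Aa-deficient libraries (log2 change 0.12, limma adjusted p = 0.943), and its log2 change ran from -0.16 without PP2Aa-deficient replicate 2 to 0.53 without PP2Aa-deficient replicate 1, with an unadjusted limma p of 0.0432 at the upper end. The checkpoint kinase Bub1 and the related Bub1b, whose product binds PP2A at the kinetochore, did not exceed 1.04 and 1.69 FPKM. Cenpe, a kinetochore motor, and Cenpf did not exceed 0.57 and 0.488. These last 4 genes were not tested.

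The mitotic kinase complex was lower on average in all 6 of its genes, and in 4 of them WT replicate 1 held the highest value. Cdk1 was at 3.96, 1.13 and 0.806 FPKM for WT compared with 1.11, 1.01 and 0.576 FPKM for the PP2Aa-deficient group, a log2 change of -0.50 (SE 0.38, limma adjusted p = 0.745). Its lowest value rested on about 6.0 fragments. WT replicate 1 stood far above the rest, WT replicate 2 just above the highest PP2Aa-deficient library and WT replicate 3 among them, and the log2 change ran from -0.78 without WT replicate 3 to -0.055 without WT replicate 1. Ccnb1, cyclin B1, was at 7.56, 2.75 and 3.42 FPKM across the WT libraries against 0.889, 3.02 and 5.69 across the PP2Aa-deficient ones, with the lowest value in PP2Aa-deficient replicate 1 (about 5.4 fragments) and a log2 change of -0.49. It ran from -0.92 without PP2Aa-deficient replicate 3 to -0.009 without PP2Aa-deficient replicate 1, and was -0.14 without WT replicate 1. Cks1b, a CDK subunit, was at 28, 10.9 and 6.48 FPKM among WT replicates, with 10.1, 12.3 and 9.46 FPKM among PP2Aa-deficient replicates. Its log2 change of -0.25 ran from -0.69 without WT replicate 3 to 0.29 without WT replicate 1, and that of Cks2, -0.15, from -0.29 without WT replicate 3 to 0.096 without WT replicate 1. Ccna2, cyclin A2, was at 4.71, 3.54 and 4.93 FPKM for WT compared with 3.13, 2.07 and 5.58 FPKM for the PP2Aa-deficient group (log2 change -0.29). It ran from -0.59 without PP2Aa-deficient replicate 3 to -0.040 without PP2Aa-deficient replicate 2, with an unadjusted limma p of 0.0408 at the lower end. Ccnb2, cyclin B2, ranged from 1.77 to 9.64 FPKM, both ends in PP2Aa-deficient libraries, and its log2 change of -0.09 from -0.54 without PP2Aa-deficient replicate 3 to 0.43 without PP2Aa-deficient replicate 2.

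Of the mitotic kinases, Aurkb, which encodes Aurora B of the centromeric passenger complex, was at 9.99, 6.99 and 2.3 FPKM across the WT libraries against 3.04, 2.37 and 3.59 across the PP2Aa-deficient ones. WT replicates 1 and 2 were above and WT replicate 3 below every PP2Aa-deficient library (log2 change -0.74, SE 0.40, limma adjusted p = 0.611). The log2 change ran from -1.24 without WT replicate 3 to -0.37 without WT replicate 1, with an unadjusted limma p of 0.000915 at the lower end, where it was still not called. Birc5, survivin of the same complex, was at 10.4, 6.98 and 7.61 FPKM among WT replicates, with 7.09, 6.18 and 17.6 FPKM among PP2Aa-deficient replicates, with PP2Aa-deficient replicate 3 above the other 5 libraries (log2 change 0.16, from -0.27 without PP2Aa-deficient replicate 3 to 0.41 without PP2Aa-deficient replicate 2). Aurka, Aurora A of the spindle poles, and Plk1, Polo-like kinase 1, had log2 changes of 0.15 and 0.19 (limma adjusted p = 0.901 and 0.911). Both turned sign, Aurka from -0.070 without PP2Aa-deficient replicate 1 to 0.33 without PP2Aa-deficient replicate 2 and Plk1 from -0.14 without WT replicate 3 to 0.53 without WT replicate 1.

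Ube2c and Cdc20 serve the anaphase promoting complex, as its ubiquitin-conjugating enzyme and its activator. Ube2c was at 27.6, 8.2 and 12 FPKM for WT compared with 8.93, 10.1 and 7.92 FPKM for the PP2Aa-deficient group, a log2 change of -0.60 (SE 0.36, limma adjusted p = 0.663). WT replicate 1 was 2.73 times the mean of the other WT libraries, and the log2 change ran from -0.95 without WT replicate 2 to -0.14 without WT replicate 1, with an unadjusted limma p of 0.0166 at the lower end. Cdc20 was at 9.46, 5.38 and 5.86 FPKM across the WT libraries against 5.59, 3.25 and 5.52 across the PP2Aa-deficient ones, a log2 change of -0.44 (SE 0.26, limma adjusted p = 0.647), and ran from -0.58 without WT replicate 2 to -0.22 without WT replicate 1. Of the spindle genes, Stmn1, the microtubule destabilizer stathmin, was at 26.1, 11 and 18.3 FPKM among WT replicates, with 8.79, 13 and 15.5 FPKM among PP2Aa-deficient replicates, a log2 change of -0.49 (SE 0.31, limma adjusted p = 0.674). It ran from -0.80 without WT replicate 2 to -0.21 without WT replicate 1, with an unadjusted limma p of 0.016 at the lower end. Nusap1 and Tpx2, spindle assembly proteins, had log2 changes of -0.36 and -0.16. They ran from -0.71 without WT replicate 3 to 0.003 without WT replicate 1 for Nusap1 and from -0.35 without PP2Aa-deficient replicate 3 to 0.043 without PP2Aa-deficient replicate 1 for Tpx2, with an unadjusted limma p of 0.0441 at the lower end of Nusap1. The spindle motor Kif11 was at 2.33 FPKM in WT replicate 1 and did not exceed 1.14 elsewhere, and was not tested.

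The 3 genes of chromosome structure had log2 changes near 0, with intervals of unequal width. Top2a, the topoisomerase that untangles sister chromatids, was at 4.62, 3.85 and 3.19 FPKM for WT compared with 3.45, 3.58 and 3.87 FPKM for the PP2Aa-deficient group (log2 change -0.07, interval -0.48 to 0.35). Hmgb2 had group means of 65.7 ± 1.21 FPKM (WT) and 64 ± 1.32 FPKM (PP2Aa-deficient; SD, n = 3 each), and its log2 change of -0.04 had the narrow interval of -0.28 to 0.21. Mki67 had a log2 change of -0.12 with an interval of -0.81 to 0.57, and ran from -0.34 without WT replicate 2 to 0.15 without WT replicate 1. Top2a ran from -0.17 without WT replicate 3 to 0.039 without WT replicate 1.

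The mitosis promoters shown are those of Cenpa and of Ube2c and Cdk1, 2 genes whose highest value was in WT replicate 1. The CHR letters TTTGAA, on either strand, were found in 14 of the 21 mitosis genes with a RefSeq promoter (66.7%), in 2 of 16 replication genes (12.5%) and in 20.2% of all genes with a promoter. CCAAT was found in 18 of 21 mitosis genes (85.7%), 10 of 16 replication genes (62.5%) and 41.1% of all genes. The windows, again from GRCm38.p6, are chr5:30666786-30666935 (plus strand), chr2:164769829-164769978 (plus strand) and chr10:69352863-69353012 (minus strand), and capitals mark TTTGAA or CCAAT in either orientation, so that CCAAT on the other strand reads ATTGG.
Cenpa: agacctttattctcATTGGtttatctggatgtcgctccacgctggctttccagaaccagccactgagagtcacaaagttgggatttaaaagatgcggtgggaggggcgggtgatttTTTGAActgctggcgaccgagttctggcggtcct
Ube2c: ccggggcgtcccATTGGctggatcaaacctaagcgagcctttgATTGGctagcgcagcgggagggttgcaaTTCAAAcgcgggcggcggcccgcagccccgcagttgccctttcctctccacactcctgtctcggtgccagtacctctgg
Cdk1: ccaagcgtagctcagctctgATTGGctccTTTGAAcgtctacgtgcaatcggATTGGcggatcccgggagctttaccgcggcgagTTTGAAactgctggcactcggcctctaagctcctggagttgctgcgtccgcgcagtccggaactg
All 3 hold both kinds of letters, and Cdk1 holds TTTGAA at 2 places. TTTGAA lies after the start in Cenpa and before it in Ube2c and Cdk1. These matches too describe letters only. Binding at them was not measured, and whether they bear on the values of these genes was not tested.

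The mitosis result differed with and without WT replicate 1. It held the highest value of 13 of the 20 tested mitosis genes, where it did so for 18.3% of all tested genes, and of 6 of the 16 tested replication genes. Its value was above 2 times the mean of the other WT libraries for 9 of the 20 tested mitosis genes and 0 of the 16 replication genes, against 4.33% of all tested genes. The median deviation of the mitosis genes from their own means was 0.59 (log2) in WT replicate 1, between -0.20 and 0.08 in the other 5 libraries. With all libraries 16 of 20 mitosis genes were lower in PP2Aa-deficient B cells, with a median log2 change of -0.20. The median was -0.36 without WT replicate 2 and without PP2Aa-deficient replicate 3. Without WT replicate 1, 11 of 20 were lower with a median of -0.01, and in the Xist-low libraries alone 7 of 19 were lower with a median of 0.03. The corresponding counts for replication genes were 9 of 14 (median -0.085) and 8 of 14 (median -0.12).

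**Figure D3:**
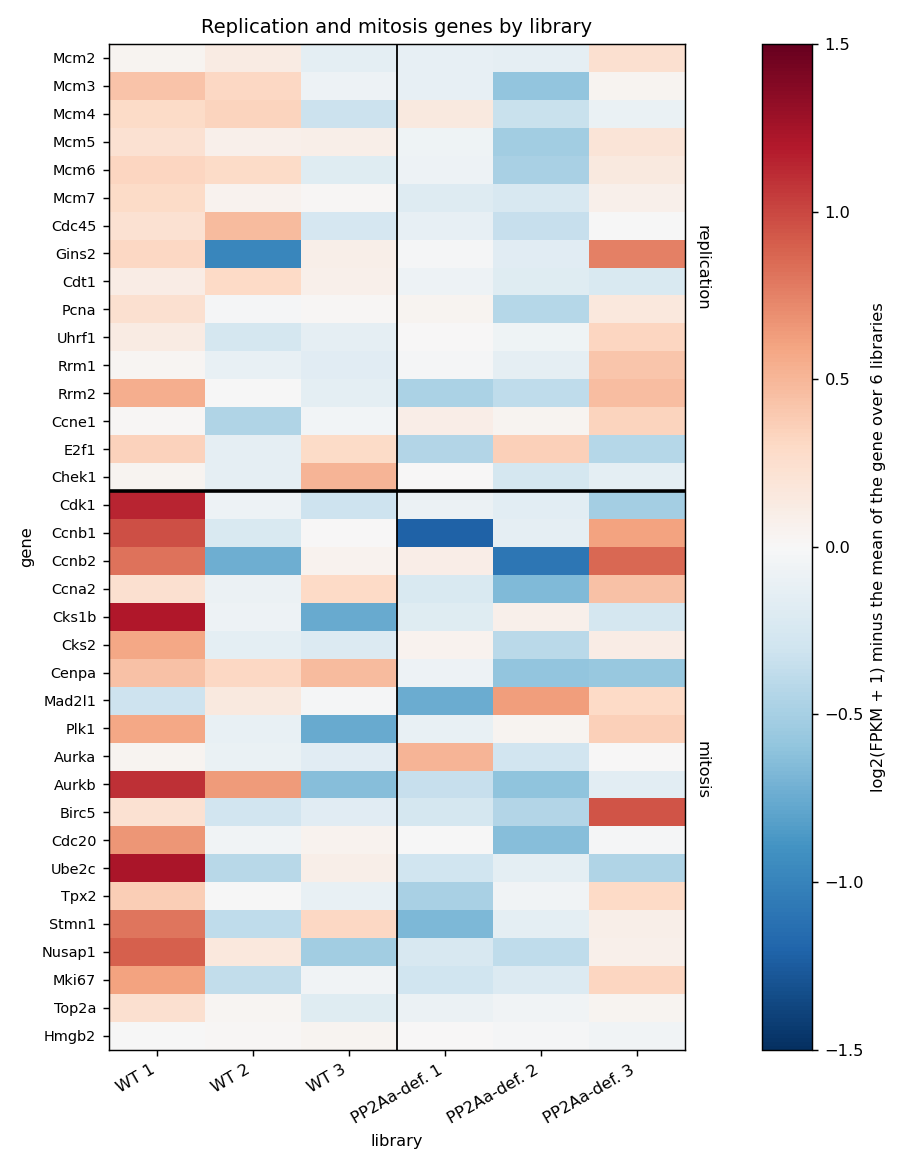
Log2(FPKM + 1) of each of the 36 tested genes minus its mean over the 6 libraries, by gene (rows, replication above the thick line and mitosis below) and library (columns; red above and blue below the gene's mean). The WT replicate 1 column is red for most mitosis genes, whereas the row of Cenpa is red in all 3 WT libraries.

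Markers of other cells and B cell states also differed between these libraries. The 7 germinal centre markers (Bcl6, Rgs13, Mef2b, S1pr2, Gcsam, Fas and Mybl1) summed to 97.3, 50.3 and 50.6 FPKM across WT libraries against 31.4, 55.6 and 35.9 across PP2Aa-deficient ones, highest in WT replicate 1, and all 5 tested were lower on average in PP2Aa-deficient B cells. Of these, Mef2b was at 22.9, 3.37 and 2.78 FPKM across the WT libraries against 1.08, 0.877 and 1.86 across the PP2Aa-deficient ones. The 9 plasma cell markers summed to 2094, 1344 and 1373 FPKM across WT libraries against 753, 996 and 726 across PP2Aa-deficient ones, and 9 macrophage markers to 364, 248 and 193 FPKM across WT libraries against 111, 168 and 112 across PP2Aa-deficient ones, most of it Apoe, and both sums were highest in WT replicate 1. The 8 T cell markers found summed to 38.2, 22.7 and 20.9 FPKM across WT libraries against 21.7, 28.4 and 22.3 across PP2Aa-deficient ones, with Cd3e at 0 in WT replicates 2 and 3 and Cd4 at 0 in 3 libraries. The 7 erythroid markers found summed to 2.97, 0.355 and 1.62 FPKM across WT libraries against 2.63, 0.744 and 21.5 across PP2Aa-deficient ones, highest in PP2Aa-deficient replicate 3. That library held the highest value of 3 of the 20 tested mitosis genes (15%, against 14.1% of all tested genes). It also held that of 5 of the 16 tested replication genes (31.2%). Natural killer markers summed to 16.3, 10.3 and 8.51 FPKM across WT libraries against 4.87, 8.65 and 9.68 across PP2Aa-deficient ones over 6 genes, and neutrophil and eosinophil markers to 44.8, 22.5 and 34.1 FPKM across WT libraries against 11.4, 14.6 and 13.7 across PP2Aa-deficient ones over the 7 genes found, of which Elane, Epx and Camp were at 0 in every library. All 9 plasma cell markers were lower on average in PP2Aa-deficient B cells. The part of these cells in the replication and mitosis values was not tested.

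**Figure D4:**
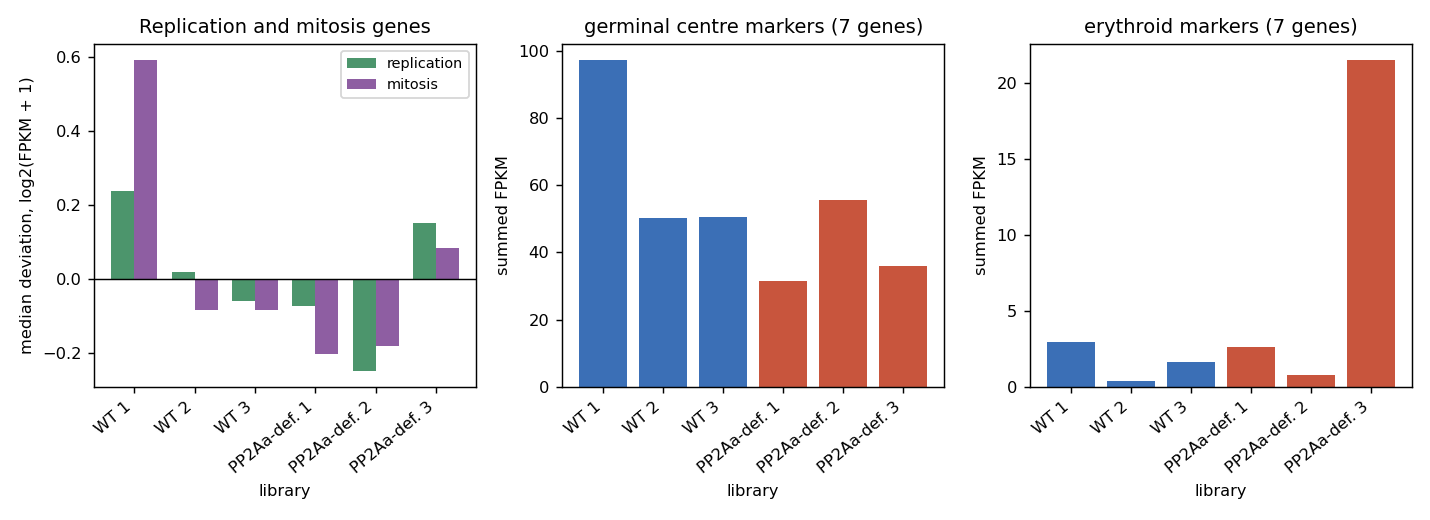
Left, median over the tested replication and mitosis genes of log2(FPKM + 1) minus each gene's mean over the 6 libraries; middle and right, summed FPKM of germinal centre and erythroid markers in the same libraries. WT replicate 1 has the highest mitosis median (0.59) and the highest germinal centre sum, and PP2Aa-deficient replicate 3 has the highest erythroid sum. Not drawn are the plasma cell, macrophage, T cell, natural killer, and neutrophil and eosinophil sums, which were also highest in WT replicate 1.

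Further genes of the same processes, outside the 44, were read for comparison. Of 46 other replication genes 40 were tested, 26 were lower (65%, against 51.1% of all tested genes), 0 were called, and the median log2 change was -0.06. At an unadjusted limma p under 0.05, 2 were lower, which is 5% of the 40 against 4.41% of all tested genes, and 5 did not overlap on the lower side (12.5% against 7.4%). Cdc7, the kinase that activates the loaded MCM ring, was at 5.87, 4.88 and 6.36 FPKM among WT replicates, with 3.64, 2.88 and 4.48 FPKM among PP2Aa-deficient replicates, without overlap (log2 change -0.53, SE 0.19, limma adjusted p = 0.447). Pold3, a subunit of DNA polymerase delta, was at 7.5, 8.54 and 7.88 FPKM for WT compared with 5.93, 4.8 and 6.41 FPKM for the PP2Aa-deficient group, also without overlap (log2 change -0.42, SE 0.16, limma adjusted p = 0.472). With PP2Aa-deficient replicate 2 left out, Cdc7 had an unadjusted limma p of 0.0838 and Pold3 of 0.103. Of 76 other mitosis genes 51 were tested, 32 were lower (62.7%), 0 were called, and the median was -0.09. At an unadjusted limma p under 0.05, 2 were lower (3.92%, against 4.41% of all tested genes), and 3 tested genes did not overlap on the lower side (5.88%, against 7.4%), both shares below the background. Cenpn, whose product binds CENP-A nucleosomes, was at 3.48, 2.47 and 2.13 FPKM across the WT libraries against 0.246, 1.79 and 1.01 across the PP2Aa-deficient ones (log2 change -0.93, SE 0.32, limma adjusted p = 0.414), and Zwint, a kinetochore protein, at 5.69, 6.68 and 5.65 FPKM among WT replicates, with 4.66, 3.46 and 3.88 FPKM among PP2Aa-deficient replicates (log2 change -0.49, SE 0.17, limma adjusted p = 0.429). Neither had overlapping groups, and the unadjusted limma p was 0.0527 for Cenpn without PP2Aa-deficient replicate 1 and 0.0668 for Zwint without PP2Aa-deficient replicate 2. Ckap2, a spindle protein, was at 2.39, 1.25 and 1.05 FPKM for WT compared with 1.24, 0 and 0.321 FPKM for the PP2Aa-deficient group, with overlap. WT replicate 1 held the highest value of 20 of these 51 genes, and without it 19 of 46 were lower, with a median of 0.03.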

How the data were processed

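RNA of 3 WT and 3 PP2Aa-deficient libraries was measured after a low-input SmartSeq2 preparation, per the labels' protocols. The authors deposited 1 table of FPKM values, whose header has the layout of Cuffnorm. Tools listed in the submitters' processing notes are TopHat2 2.0.10, Cuffnorm, Cufflinks 2.2.1 and BWA. Not given in the sources used here are the genome build, annotation, scaling and strand use, so reads of overlapping genes cannot be separated. RefSeq lists an overlapping gene for 13 of the 44 genes and a pseudogene or retrocopy named after 5 (Pcna, Tyms, Ccnb1, Ccnb2 and Cks1b). Of 22815 rows, 27 with dates for names were left out.

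From these values log2(FPKM + 1) was compared by limma 3.58.1 under R 4.3.3 (moderated, mean-variance trend, two-sided, group as the only term) for the 9425 genes with at least 1 FPKM in at least 3 libraries, with Benjamini-Hochberg adjustment over all of them. Fold changes on this scale understate those of low genes. The limma step was tested on simulated data. Tables and figures used Python 3.11.15, pandas 2.3.3 and matplotlib 3.10.9. Relative depth came from the most common ratio of low values between libraries (0.978 to 1.76). Median-ratio factors were 0.994 to 1.02. Exact 0 values can be failed estimates: Rn45s, a ribosomal RNA precursor made by every cell, had 0 FPKM in 3 libraries. It was at 4.47e+04 FPKM in WT replicate 1, and at 6.43e+04 and 3.19e+04 FPKM in PP2Aa-deficient replicates 2 and 3.

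The genes and lists were chosen with earlier results of these data known. Values in every library were given for the 8 genes of smallest p and the 3 of highest mean in each list, for Mcm2, Mcm5, Pcna, Mki67, Top2a, Cdk1, Ccnb1 and Aurkb, and for the 3 genes of smallest p in each further list. A marker each of the B cell and germinal centre lists, and part of the genotype, are not reported here. Values per library of other genes were added after they were seen, as were the promoter letters. Alternatives were leaving out each library, array weights, fits lacking the trend, scaling by median ratio or quantiles, a stricter filter (5 FPKM) or none at all, a term for the Xist class, smaller pseudocounts (0.5, 0.1), and, chosen after seeing the data, the Xist-low libraries alone.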

Additional observations from a re-analysis of the deposited data

How the results depend on the processing

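The genes called over the whole table numbered 3 with all libraries, 16 with array weights, 11 with quantile normalization, 9 without the mean-variance trend, 5 with the filter at 5 FPKM, and 1 to 13 when a library was left out (5 without WT replicate 1, 1 without WT replicate 2 or WT replicate 3, 13 without PP2Aa-deficient replicate 2). None of the 44 genes was called under any of the 16 alternatives. Mitosis genes with a lower mean in PP2Aa-deficient B cells numbered 8 of 10 with the filter at 5 FPKM, where fewer genes were tested, and 7 of 19 in the Xist-low libraries. Leaving out a library gave 11 to 17 lower mitosis genes and 9 to 12 lower replication genes. Of 22 named genes tested, 15 kept their direction under every alternative that tested them. In the Xist-low libraries the log2 change turned to 0.35 for Ccnb1, 0.27 for Mki67, 0.069 for Mcm2, 0.068 for Top2a, 0.03 for Cks2 and 0.002 for Stmn1. With array weights Mki67 was at 0.081, and with quantile normalization Mcm2 was at 0.01. When a library was left out the log2 change ranged from -0.34 to 0.15 for Mki67, -0.134 to 0.053 for Mcm2, -0.294 to 0.096 for Cks2, -0.172 to 0.039 for Top2a and -0.27 to 0.018 for Pcna. The cause was not tested. Fits without a library rest on 2 libraries in that group. No paired analysis was possible because the labels give no replicate numbers, litter or day that pairs the libraries. Depth of a few fragments limits the genes near 1 FPKM.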

Other observations

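Regulators of the cycle were read from a list of 35 genes, of which 28 were tested, 15 were lower and 13 higher in PP2Aa-deficient B cells, 0 were called, and the median log2 change was -0.04. At an unadjusted limma p under 0.05, 3 were lower (10.7%, against 4.41% of all tested genes) and 0 higher (against 5.06%). Pkmyt1, an inhibitory kinase of CDK1, was at 5.61, 3.88 and 4.58 FPKM across the WT libraries against 1.86, 2.26 and 3.2 across the PP2Aa-deficient ones, without overlap (log2 change -0.73, SE 0.22, limma adjusted p = 0.357). With 1 library left out, its unadjusted limma p was under 0.05 in all 6 fits. Ccnd2, the cyclin D2 of B cells, was at 9.37, 9.45 and 10.7 FPKM among WT replicates, with 7.17, 7.45 and 7.49 FPKM among PP2Aa-deficient replicates, also without overlap (log2 change -0.37, SE 0.14, limma adjusted p = 0.472). Its unadjusted limma p was under 0.05 in 1 of the 6 fits that lacked a library, and was 0.0967 without WT replicate 3. Cdkn1a, the CDK inhibitor p21, was at 21.6, 24.3 and 23.5 FPKM for WT compared with 13, 22.5 and 10.6 FPKM for the PP2Aa-deficient group, with PP2Aa-deficient replicate 2 close to WT (log2 change -0.63, SE 0.24, limma adjusted p = 0.472). For Cdkn1a the unadjusted limma p was under 0.05 in 2 of those 6 fits, and was 0.115 without PP2Aa-deficient replicate 3. PP2Aa-deficient replicate 2 also kept the most Ppp2r1a of its group, 56.2 FPKM. Among the 16 tested replication genes, however, it was the lowest library for 8 and the highest for 1. Those 8 were 50%, where it was lowest for 17% of all tested genes. Whether the level of Ppp2r1a bears on any of these values was not tested.

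Of the 28 tested regulators, 4 did not overlap on the lower side (14.3%, against 7.4% of all tested genes) and 2 on the higher side (against 7.7%). Beside Pkmyt1 and Ccnd2 these were genes of the E2F family and its partners, named here after their values were seen. E2f2 was at 2.75, 2.48 and 2.85 FPKM across the WT libraries against 2.07, 2.23 and 1.98 across the PP2Aa-deficient ones and E2f4 at 9.27, 6.84 and 6.75 FPKM among WT replicates, with 5.52, 6.44 and 5.92 FPKM among PP2Aa-deficient replicates, lower in PP2Aa-deficient B cells. E2f5 was at 1.17, 2.34 and 2.88 FPKM for WT compared with 3.24, 3.33 and 3.08 FPKM for the PP2Aa-deficient group and the dimerization partner gene Tfdp1 at 4.02, 4.5 and 2.09 FPKM across the WT libraries against 5.15, 6.68 and 4.65 across the PP2Aa-deficient ones, both higher. E2f6 and E2f7 were too low to be tested, below 1 FPKM in every library, where values rest on few fragments. Their values were also without overlap on the higher side, but narrowly. For E2f7, WT replicate 1 (0.0812 FPKM) and PP2Aa-deficient replicate 2 (0.0829 FPKM) differed little. The same held for E2f6 in WT replicate 3 (0.324 FPKM) and PP2Aa-deficient replicate 3 (0.347 FPKM). None of the 4 tested genes passed (limma adjusted p = 0.727, 0.651, 0.593 and 0.54 in that order). Their log2 changes were -0.255, -0.298, 0.471 and 0.549. When a library was left out they became as small as -0.224 for E2f2 and 0.294 for Tfdp1, both without WT replicate 3. For E2f4 and E2f5 they became as small as -0.166 and 0.228, both without WT replicate 1.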
